A study of Mus musculus with 6 samples.

Results

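The chromosome 2 genes 2210418O10Rik, Gm14295, Zfp971, Gm2004 and Gm14405 of the mouse gave higher array signals in the hippocampus of quadruple knockout mice than in wildtype mice. The platform annotation named at least 1 of these 5 genes on 21 of 34472 probe sets, out of 23981 gene symbols that the array covers. Of the 21, 8 carried 1 member symbol alone and 13 were shared with further genes, so the 2 kinds are described apart. A probe set of a gene's own is one that names no other gene in this annotation. Probe sequences were not compared, so signal from similar genes that it does not name cannot be told apart. The genes were chosen from this same contrast: each had a probe set of its own with an adjusted p under 0.05 in a limma fit over all probe sets, and the differences between the genotypes are therefore given as a description and without a test. The members nearest the threshold on its inner side were Zfp971 and Gm2004, with adjusted p = 0.0479 and 0.0440 in limma, and the nearest genes of the same run on its outer side were Gm14322 and Gm14403, with adjusted p = 0.0575 and 0.0759 in limma.

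Total RNA came from the hippocampus of male mice at postnatal day (P) 21. The 3 quadruple knockout samples lacked the matrix glycoproteins tenascin-C and tenascin-R and the proteoglycans brevican and neurocan (Tnc -/-, Tnr -/-, Bcan -/-, Ncan -/-), and the 3 control samples were labelled wild-type and carried none of these alleles. Each sample was hybridised to 1 Affymetrix Mouse Gene 2.0 ST array, a 1-colour platform whose values here are background-corrected, quantile-normalised probe set summaries on the log2 scale (RMA signal), so 1 unit is a doubling of signal. The methods name SV129 mice and triplicates of siblings, and a legend of the study calls the samples dependent, whereas the labels call them biological replicates; p-values over these arrays measure the spread between 3 samples a genotype. The arrays measured RNA of the whole tissue, and fewer cells of a type and less RNA per cell cannot be told apart in such samples. Neither the DNA sequence nor the copy number of the chromosome 2 genes was measured in these mice, and the 4 null alleles and any other inherited difference between the 2 lines cannot be told apart in this design.

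As a check of the labels, brevican signal averaged 5.79 ± 0.06 in quadruple knockout mice and 10.49 ± 0.17 in wildtype mice (SD, n = 3 each), at least 22.2-fold lower with the knockout arrays below background. Of the neurocan probe sets, 17509944 differed by -5.14 log2 units, and 17501807, also below background in the knockout, was at least 7.93-fold lower (adjusted p = 5.85e-06 each in limma). The Tnc and Tnr probe sets differed by -0.15 and -0.10 log2 units (adjusted p = 0.794 and 0.706 in limma), and since the positions of their probes were not used here, a probe outside the deleted part would check nothing. Of 8 hippocampal marker genes, 7 lay above the background level on every array, and of 25 probe sets for markers of hippocampus, astrocytes, oligodendrocytes, microglia, endothelium, choroid plexus, thalamus and striatum none was called by limma or by the ordinary test and 0 had an unadjusted p under 0.05. Array medians lay between 6.30 and 6.33 for the quadruple knockout and between 6.34 and 6.39 for the wildtype.

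Zinc finger protein genes with a KRAB domain form one of the largest families of transcription regulators in mammals. The fingers of these proteins read DNA, and the KRAB domain recruits the corepressor Trim28 and the histone methyltransferase Setdb1, by which many of them silence retrotransposons. The genes lie in clusters that have grown by tandem duplication, so that neighbours resemble each other closely. Of the 5 genes only Zfp971 bears a zinc finger name. RefSeq lists 4 of them as protein coding and Gm14405 as a transcribed pseudogene, and the zinc finger label of the rest rests on their company: 2210418O10Rik and Gm14405 share probe sets with Zfp971, whereas Gm2004 and Gm14295 share none with any gene.

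The resemblance of neighbours can be seen at the promoters, which are shown because they hold a feature that members have in common and that the choice of the genes did not use. RefSeq windows of 300 bases (assembly GRCm38.p6), from 250 bases before to 50 bases after an annotated gene start, were found for 4 of the 5 genes and are given from 5′ to 3′ on the strand of the gene. Capitals mark the longest stretch of letters that the 4 windows share without a difference, 89 bases long. The Gm2004 window lies on the minus strand at chr2:176153373-176153672, the 2210418O10Rik window on the plus strand at chr2:176226315-176226614, the Gm14295 window on the plus strand at chr2:176798350-176798649 and the Zfp971 window on the plus strand at chr2:178023034-178023333.
Gm2004: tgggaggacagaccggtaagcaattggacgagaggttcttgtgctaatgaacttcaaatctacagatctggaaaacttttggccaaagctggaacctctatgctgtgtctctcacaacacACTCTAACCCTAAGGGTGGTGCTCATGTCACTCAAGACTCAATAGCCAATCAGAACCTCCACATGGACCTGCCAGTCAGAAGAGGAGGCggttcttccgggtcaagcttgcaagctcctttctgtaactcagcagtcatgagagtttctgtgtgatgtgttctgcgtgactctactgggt
2210418O10Rik: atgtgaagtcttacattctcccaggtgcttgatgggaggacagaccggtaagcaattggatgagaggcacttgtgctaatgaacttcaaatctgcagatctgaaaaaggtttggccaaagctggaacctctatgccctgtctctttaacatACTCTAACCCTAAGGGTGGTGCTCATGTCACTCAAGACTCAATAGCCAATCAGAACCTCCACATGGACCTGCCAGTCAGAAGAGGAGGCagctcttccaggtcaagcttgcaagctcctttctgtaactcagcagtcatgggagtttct
Gm14295: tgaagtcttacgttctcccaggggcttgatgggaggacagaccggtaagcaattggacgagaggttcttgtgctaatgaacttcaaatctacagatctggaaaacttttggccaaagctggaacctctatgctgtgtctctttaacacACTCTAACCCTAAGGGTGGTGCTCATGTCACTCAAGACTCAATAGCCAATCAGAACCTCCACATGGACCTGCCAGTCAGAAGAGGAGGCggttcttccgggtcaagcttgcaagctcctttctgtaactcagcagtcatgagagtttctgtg
Zfp971: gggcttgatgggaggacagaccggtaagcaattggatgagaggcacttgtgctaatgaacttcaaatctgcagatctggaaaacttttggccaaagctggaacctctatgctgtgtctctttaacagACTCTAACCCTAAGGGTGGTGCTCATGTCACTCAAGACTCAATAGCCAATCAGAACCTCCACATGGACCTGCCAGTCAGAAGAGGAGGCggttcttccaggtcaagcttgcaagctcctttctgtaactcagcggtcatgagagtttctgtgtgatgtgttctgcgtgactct
These letters belong to the reference assembly and were not read from the mice of the study.

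The shared stretch ended 42 bases before the gene start in Gm2004, 35 in Zfp971, 14 in Gm14295 and 11 in 2210418O10Rik. Aligned over their overlap, the windows of Gm2004 and Gm14295 were the most alike, with 98.9% identity and 3 differing columns of 272, and those of Gm2004 and 2210418O10Rik the least alike of the 6 pairs, with 93.7% identity. The whole stretch occurred in 23 of 32851 RefSeq promoter windows (0.07%), which belong to 20 genes, and all 20 lie on chromosome 2. A CCAAT motif (letters CCAAT, searched on both strands) lies within the stretch and so in all 4 member windows, against 37.4% of all windows of the same length. The motif TATAAA was found in none of the 4 and in 13.6% of all windows. A match of letters is a description of the sequence and not of a bound site.

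2210418O10Rik was measured by 3 probe sets of its own, and all were higher in the quadruple knockout. Probe set 17380464 gave 9.87, 10.18 and 10.22 in the quadruple knockout, against 7.47, 6.54 and 7.45 in the wildtype. Wildtype replicate 2 was the lowest of the 6 arrays, and all 3 knockout arrays lay above all 3 wildtype arrays, with 2.40 log2 units between the nearest. The group means were 10.09 ± 0.19 (knockout) and 7.15 ± 0.53 (wildtype; SD, n = 3 each), a difference of 2.94 log2 units (SE 0.33) or 7.66-fold.

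The other probe sets of 2210418O10Rik went the same way. Probe set 17395382 gave 7.11, 7.66 and 7.49 in the quadruple knockout, against 4.27, 4.47 and 4.35 in the wildtype, and its group means of 7.42 ± 0.28 (knockout) and 4.36 ± 0.10 (wildtype; SD, n = 3 each) differed by 3.06 log2 units (SE 0.17). All 3 wildtype arrays were under the background level, which was set at 6.01, the level under which 95% of 1091 probe sets for olfactory receptors lay. Olfactory receptor genes are used mainly by sensory neurons of the nose. Where all arrays of a genotype lie under that level only a bound can be given, here at least 2.65-fold, taking the mean of the brighter genotype against the background level. Probe set 17380466 gave 8.70, 8.91 and 8.97 in the quadruple knockout, against 7.14, 6.66 and 6.64 in the wildtype, all above background. Its means of 8.86 ± 0.14 (knockout) and 6.81 ± 0.28 (wildtype; SD, n = 3 each) differed by 2.04 log2 units (SE 0.18) or 4.13-fold.

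Gm14295, measured by 1 probe set of its own, gave 9.57, 10.10 and 10.17 in the quadruple knockout, against 7.98, 7.52 and 8.09 in the wildtype. No array of either genotype was near the background level, and the groups were 1.48 log2 units apart at their nearest. The means were 9.95 ± 0.33 (knockout) and 7.87 ± 0.30 (wildtype; SD, n = 3 each), a difference of 2.08 log2 units (SE 0.26) or 4.24-fold.

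Zfp971 gave 6.69, 6.58 and 6.04 in the quadruple knockout, against 4.94, 4.34 and 4.09 in the wildtype. The wildtype arrays were all below background and the third knockout array lay just above it. The means of 6.44 ± 0.35 (knockout) and 4.46 ± 0.44 (wildtype; SD, n = 3 each) differed by 1.98 log2 units (SE 0.32), and the bound was at least 1.35-fold.

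Gm2004 and the pseudogene Gm14405 stayed near or below the background level. Gm2004 probe set 17395373 gave 6.21, 6.43 and 6.06 in the quadruple knockout, against 5.44, 5.29 and 5.34 in the wildtype, a difference of 0.88 log2 units (SE 0.12) and at least 1.17-fold. Gm2004 probe set 17395368 gave 4.28, 4.46 and 4.46 in the quadruple knockout, against 3.72, 3.89 and 3.87 in the wildtype, and since all 6 arrays were below background no fold is given for its difference of 0.57 log2 units (SE 0.08). Gm14405 gave 5.84, 6.03 and 6.06 in the quadruple knockout, against 5.16, 5.16 and 5.21 in the wildtype. Its means of 5.98 ± 0.12 (knockout) and 5.18 ± 0.03 (wildtype; SD, n = 3 each) differed by 0.80 log2 units (SE 0.07), with all wildtype arrays and 1 of 3 knockout arrays below background, and its knockout mean was too low for a bound.

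**Figure D1:**
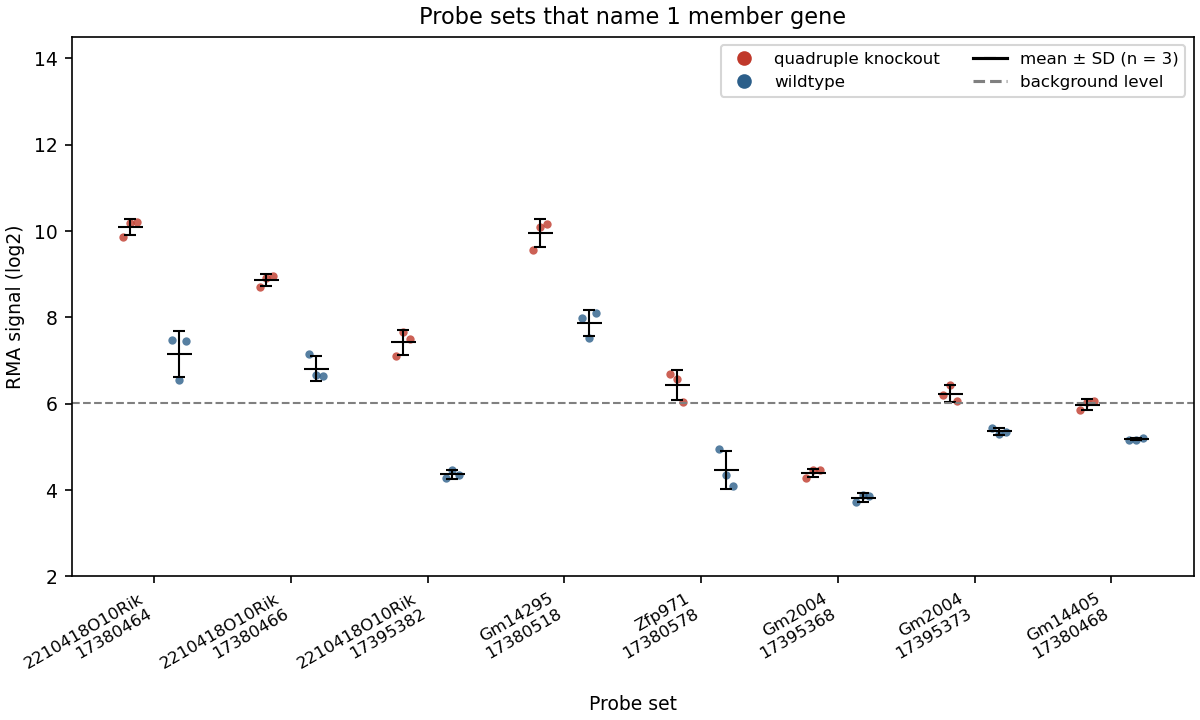
RMA signal (log2, vertical axis) of the 8 probe sets that name 1 member gene, with quadruple knockout arrays in red on the left and wildtype arrays in blue on the right of each pair, black bars for the mean ± SD (n = 3) and a dashed line at the background level of 6.01. In all 8 the knockout arrays lie above the wildtype arrays, and in 5 the wildtype arrays lie under the dashed line.

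The sizes can be set in order for the 3 probe sets with both genotypes above background. The 2.94 of 2210418O10Rik probe set 17380464 was 0.85 log2 units above the 2.08 of Gm14295 (larger standard error 0.33), and Gm14295 and 2210418O10Rik probe set 17380466 differed by 0.04, less than the larger of their standard errors (0.26). In the other 5 the wildtype arrays were all below background, so that their order is not measured. With bounds in place of measured differences the median over the 6 probe sets that allow a value was 1.73 log2 units. Over all 8 as measured it was 2.01. The 2 left out, of Gm14405 and Gm2004 (17395368), had small measured differences of 0.80 and 0.57, so the medians cover unlike sets.

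Over the 8 probe sets, 7 passed the adjusted p of 0.05 and 8 had no overlap between the genotypes, where 0.113% of all probe sets were called higher in the quadruple knockout and 7.94% had every knockout array above every wildtype array. Since the genes were picked by this contrast, nothing is read from these counts. The median difference over all 34472 probe sets was -0.01 log2 units. The probe set that was not called was the dim one of Gm2004, with adjusted p = 0.125 in limma.

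Some arrays stood low or high within their genotype for most of the members. Replicate 1 of the quadruple knockout was the lowest of its group in 6 of the 8 probe sets, Zfp971 being an exception with its highest value there, and replicate 2 was above the group mean in all 8. In the wildtype, replicate 2 was the lowest in 4 of 8, among them the probe set 17380464 of 2210418O10Rik and that of Gm14295. The SD within a group had a median of 0.19 log2 units in quadruple knockout arrays and 0.19 in wildtype arrays, and reached 0.35 and 0.53. The nearest arrays of the 2 genotypes were 0.38 to 2.64 log2 units apart. Genes picked by this contrast have a small spread beside their difference through that choice, so nothing is read from the comparison.

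The 13 shared probe sets also named 19 further genes, among them Zfp965, Zfp966, Zfp967, Zfp968 and Zfp970, and their signal cannot be assigned to 1 gene. Zfp971 was named on 12 of them, 2210418O10Rik on 4 and Gm14405 on 1. All 13 were higher in the quadruple knockout, by 0.42 to 1.68 log2 units with a median of 1.08, and 11 passed the adjusted p, where 0.113% of all probe sets were called higher. Nothing is read from this count either, since the contrast is the one that chose the genes. Both ends of the range come from probe sets with wildtype arrays below background, and with bounds the median over 12 was 1.10. It leaves out probe set 17395298, which had the smallest difference and allows no bound, so the 2 medians cover unlike sets. The 13 shared probe sets held 12 distinct profiles, because probe sets 17380491 and 17395272 carried the same value on every array.

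The narrowest of the shared probe sets came closest to 1 gene. Probe set 17380549, named for Zfp970 and Zfp971, gave 7.27, 7.25 and 7.47 in the quadruple knockout, against 5.85, 5.72 and 5.39 in the wildtype. With the wildtype arrays below background, its difference of 1.68 log2 units (SE 0.15) stands as at least 2.49-fold, beside at least 1.35-fold for Zfp971 alone. Probe set 17395354, named for Gm14405 and Zfp971, gave 7.07, 7.22 and 7.34 in the quadruple knockout, against 6.43, 6.00 and 6.32 in the wildtype, a difference of 0.96 log2 units (SE 0.15) that did not pass the adjusted p. Probe set 17395298, named for Zfp966, Zfp967, Zfp968 and Zfp971, was below background on all 6 arrays and was the other one not called.

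The probe sets with 7 to 13 symbols spread little within a genotype. Probe set 17380427, named for 2210418O10Rik and 8 further genes, gave 12.47, 12.48 and 12.44 in the quadruple knockout, against 11.32, 11.43 and 11.42 in the wildtype. Its difference was 1.08 log2 units (SE 0.04) or 2.11-fold. Probe set 17395359, with 8 symbols including Zfp971 and 2210418O10Rik, gave 9.46, 9.57 and 9.51 in the quadruple knockout, against 8.12, 8.14 and 8.27 in the wildtype, the largest difference of this kind at 1.34 log2 units (SE 0.06) or 2.53-fold. Over the 13 shared probe sets the SD within a group had a median of 0.06 log2 units in quadruple knockout arrays and 0.07 in wildtype arrays, lower than in the probe sets with 1 symbol. Whether the smaller difference of the shared probe sets departs from that of the probe sets with 1 symbol was not tested.

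**Figure D2:**
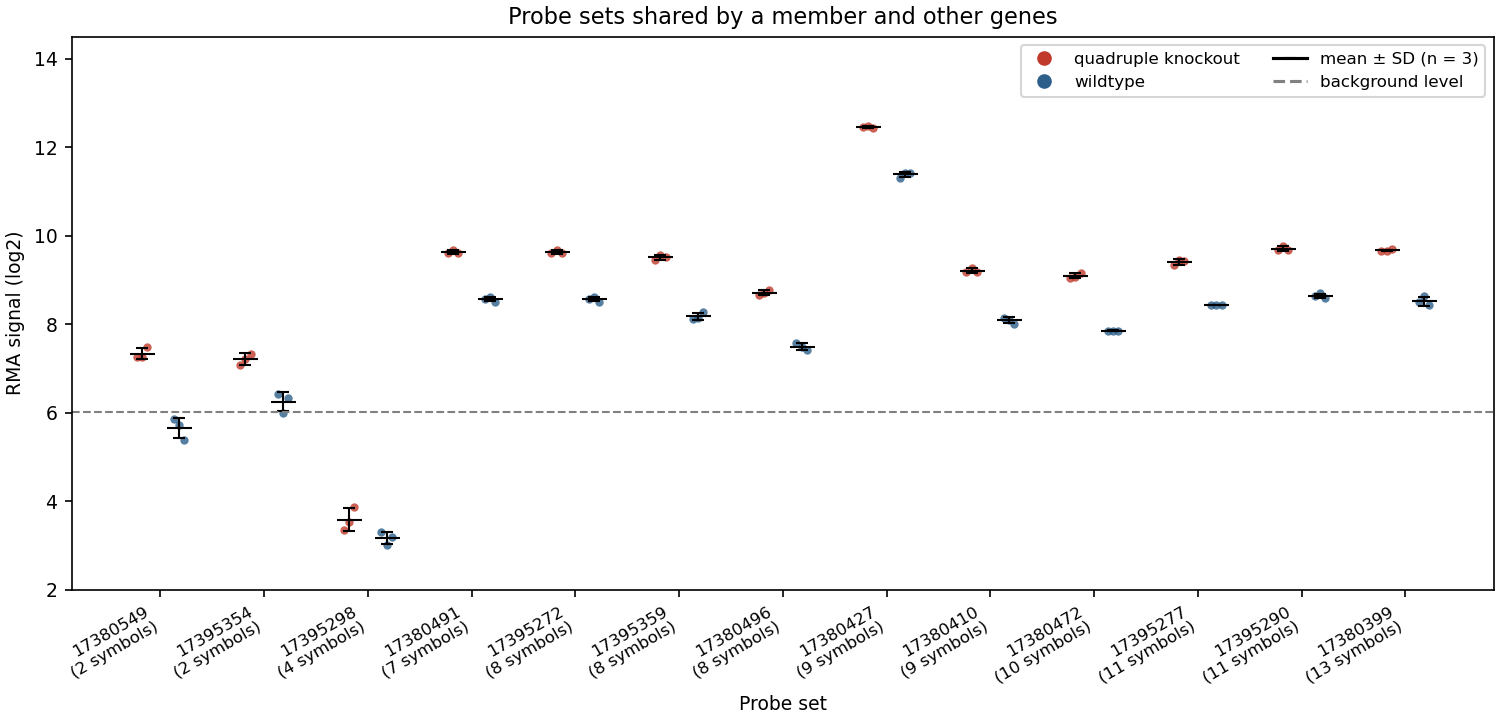
RMA signal (log2, vertical axis) of the 13 shared probe sets, ordered by how many symbols each names, with quadruple knockout arrays in red on the left and wildtype arrays in blue on the right, black bars for the mean ± SD (n = 3) and a dashed line at the background level. Apart from 17395298, which is below background throughout, the genotypes are at least 0.64 log2 units apart at their nearest arrays.

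In the order of chromosome 2 genes the run was taken as the 49 genes from the first member, Gm2004, to the last, Zfp971. Between them 2210418O10Rik, Gm14295 and Gm14405 hold places 3, 12 and 14. The ends of the run are thus set by the choice of the members, and 9 genes with the shared promoter stretch lie before it. Of the 49 genes, 30 had no probe set, 8 were named only on probe sets with several symbols, and 11 had a probe set of their own. The array therefore reads most of this stretch of chromosome only through shared probe sets or not at all.

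Genes of the run that share no probe set with a member had 6 probe sets, and none passed the adjusted p in limma, with 3 at an unadjusted p under 0.05 (3 of 6, against 9.05% of all probe sets) and none by the ordinary test without shared variances. Gm14322 came nearest: it gave 7.13, 7.55 and 6.99 in the quadruple knockout, against 5.08, 5.35 and 4.15 in the wildtype, at least 2.32-fold with the wildtype below background. Its groups did not overlap, the measured means differed by 2.37 log2 units (SE 0.40), and its adjusted p of 0.0575 in limma became 0.0188 without wildtype replicate 3 and ranged from 0.00813 to 0.455 over all settings run. Gm14403 gave 6.24, 6.27 and 6.46 in the quadruple knockout, against 5.30, 5.49 and 5.68 in the wildtype, at least 1.24-fold with the wildtype below background (adjusted p = 0.0759 in limma).

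Not every gene of the run was higher in the quadruple knockout. Gm14407 gave 9.20, 9.19 and 9.01 in the quadruple knockout, against 9.57, 9.52 and 9.31 in the wildtype, a difference of -0.33 log2 units that did not pass the adjusted p (0.486 in limma). Gm14406, Zfp972 and the probe set of Gm14327 alone were below background on all 6 arrays, so that their differences of 0.05, 0.05 and -0.02 log2 units do not show whether these genes changed. The shared probe sets that name Gm14327 beside members were higher in the quadruple knockout.

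The promoter stretch and the array can be read side by side in the few genes with a probe set of their own. Of the 20 genes with the stretch, 11 lie in the run, 9 lie before it, 4 are members and 16 are not. Of those 16, 12 are named on a shared probe set of a member, 3 had no probe set, and Gm14322 has one of its own. Thus 5 genes with the stretch had a probe set that names no other gene, the members Gm2004, 2210418O10Rik, Gm14295 and Zfp971 and the gene Gm14322. Of these, 2210418O10Rik and Gm14295 had wildtype arrays above background, with differences of up to 2.94 and 2.08 log2 units. The others allow a bound alone, of at least 0.22 for Gm2004, 0.43 for Zfp971 and 1.21 log2 units for Gm14322. Of the genes of the run with a window without the stretch and a probe set of their own, Gm14403 allows a bound of at least 0.31 log2 units, and Zfp972, below background on all arrays, allows none. These are 7 genes chosen partly by their signal, and the relation was not tested.

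Genes with a probe set of their own outside the run were set beside it. The nearest gene with a probe set of its own before Gm2004, Gm14393, lay 20 places away and gave 5.05, 5.42 and 4.78 in the quadruple knockout, against 5.43, 4.88 and 4.61 in the wildtype, all below background. Next to Zfp971 on the other side, Zfp931, also a zinc finger gene by name, gave 8.23, 8.26 and 8.30 in the quadruple knockout, against 8.51, 8.11 and 7.90 in the wildtype, a difference of 0.09 log2 units (adjusted p = 0.875 in limma). Within 40 places of the run on either side, 29 probe sets with 1 symbol ranged from -0.33 to 0.46 log2 units with a median of 0.01, and none was called by limma or the ordinary test, with 10 at an unadjusted p under 0.05 (34.5%, against 9.05% of all probe sets). In 7 of the 29 every knockout array was above every wildtype array, where 7.94% of all probe sets did so. In 3 the reverse held, as it did in 2548 of all 34472 probe sets. The space between Gm14393 and Gm2004 was read by shared probe sets alone. These 22 probe sets, which include ones that name a member further along, had differences of -0.06 to 1.76 log2 units with a median of 1.08.

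**Figure D3:**
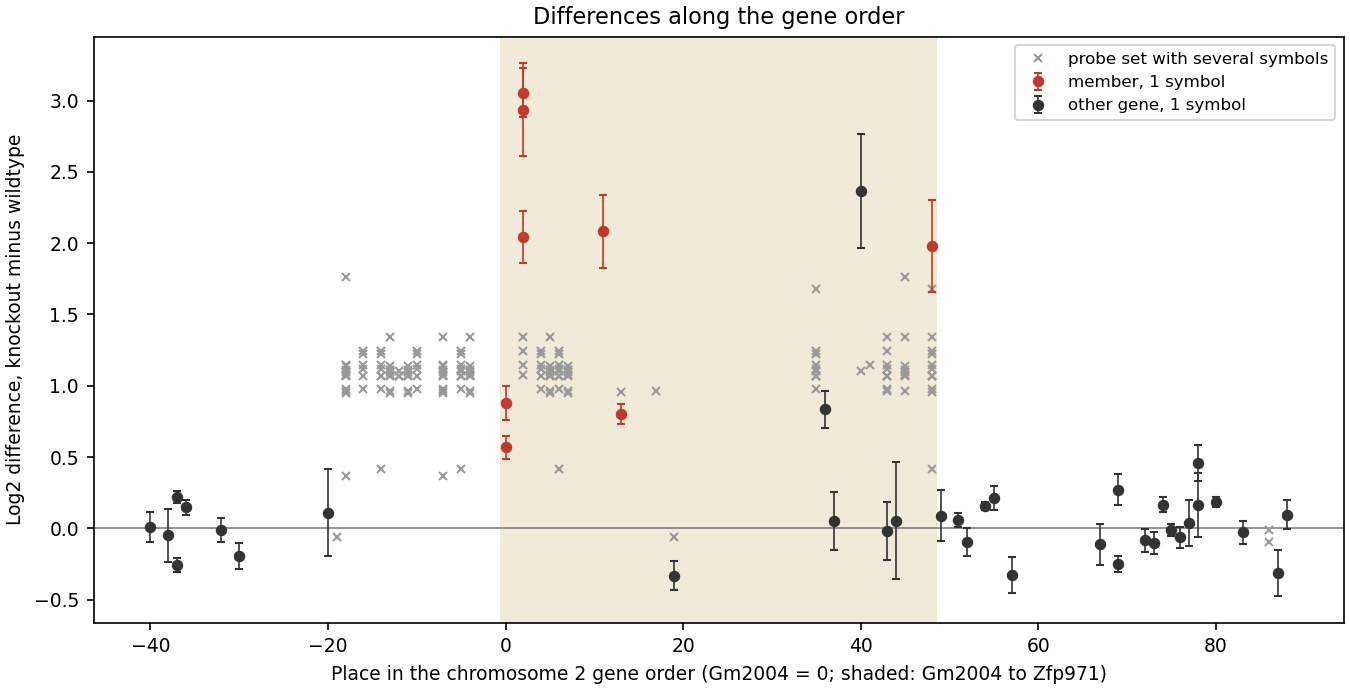
Log2 difference, quadruple knockout minus wildtype (vertical axis), against the place in the chromosome 2 gene order counted from Gm2004 (horizontal axis), with the run shaded, members in red and other genes in black with bars of 1 SE, and probe sets with several symbols as grey crosses at each gene they name. The members, Gm14322 and Gm14403 stand above 0 within the run, the last with a difference of 0.83, and genes with a probe set of their own outside it stay between -0.33 and 0.46.

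Genes sharing a probe set with a member had 11 further probe sets that name no member. Of these 9 passed the adjusted p, all higher in the quadruple knockout, where 0.113% of all probe sets were called higher. The median difference over the 11 was 1.08 log2 units. Since their genes share probe sets with members picked by this contrast, nothing is read from this count. Probe set 17380434 carried the same value as 17380427 on every array and is no separate measurement. The pair Gm14326 and Gm14391 gave 9.26, 9.28 and 9.32 in the quadruple knockout, against 7.57, 7.33 and 7.68 in the wildtype, or 1.76 log2 units higher, whereas the pair Gm14391 and Gm6710 gave 6.93, 7.55 and 6.63 in the quadruple knockout, against 6.49, 6.65 and 6.86 in the wildtype, with overlapping groups.

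Over the whole array, of 39 probe sets called higher in the quadruple knockout, 18 named a member, 9 were further probe sets of genes that share one with a member, 10 had no symbol, and 2 belonged to other genes. A further 9 were called lower, so that 0.139% of all probe sets were called in either direction.

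Zinc finger genes elsewhere in the genome were set beside the run. Of 361 probe sets of 334 Zfp genes outside the run, none passed the adjusted p in limma and none by the ordinary test. In limma 0.139% of all probe sets were called. An unadjusted p under 0.05 was found for 31 of the 361, against 9.05% of all probe sets. The differences ranged from -0.58 to 0.50 log2 units with a median of 0.05. In 49 of the 361 every knockout array was above every wildtype array, where 7.94% of all probe sets did so. In 8 the reverse held, as it did in 2548 of all 34472 probe sets. The smallest p belonged to Zfp981, with a difference of -0.58 (adjusted p = 0.254 in limma) and all arrays below background, and to Zfp229, with a difference of 0.50 (adjusted p = 0.361 in limma).

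The corepressors and heterochromatin proteins through which KRAB zinc finger proteins act differed by -0.21 to 0.19 log2 units. Of 26 probe sets of 22 genes, among them Trim28 and Setdb1, none was called by limma or the ordinary test. An unadjusted p under 0.05 was found for 1 of the 26, against 9.05% of all probe sets. Morc3, a heterochromatin protein, averaged 8.47 ± 0.04 in quadruple knockout mice and 8.28 ± 0.07 in wildtype mice (SD, n = 3 each; adjusted p = 0.527 in limma). Hdac1, a histone deacetylase, averaged 9.64 ± 0.04 in quadruple knockout mice and 9.83 ± 0.11 in wildtype mice (SD, n = 3 each; adjusted p = 0.556 in limma).

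**Figure D4:**
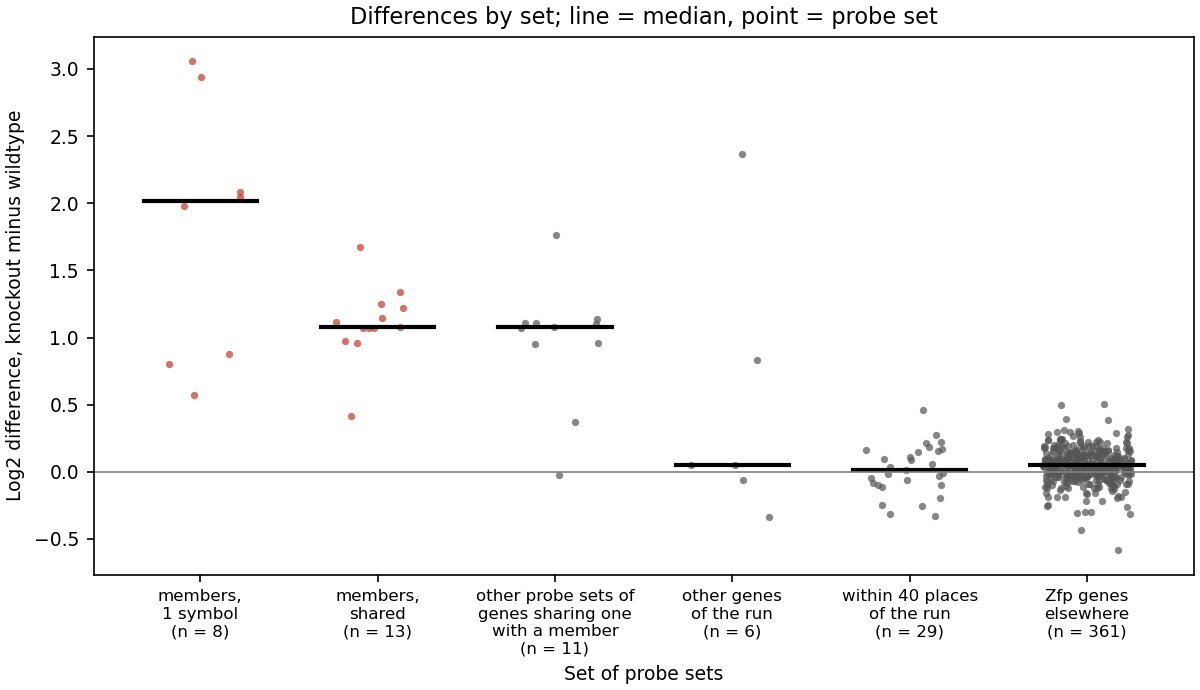
Log2 difference, quadruple knockout minus wildtype (vertical axis), of each probe set (points) in 6 sets (horizontal axis), with a black line at the median of each set. The medians are 2.01 and 1.08 for the members' own and shared probe sets and 0.05 for zinc finger genes elsewhere.

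Profiles most like those of the members were sought among the probe sets with 1 symbol of other genes. Shared probe sets and further probe sets of the same gene, some of which may lie nearer, were left out. Likeness was the smallest root mean square (RMS) difference over the 6 arrays after each profile was centred on its mean. The genotype difference dominates this measure. The nearest to Gm14295 was 2210418O10Rik probe set 17380466 (RMS 0.23 log2 units), which was also nearest to Zfp971 (0.29), and Gm14322 stood next for Zfp971 (0.40) and first for 2210418O10Rik probe set 17395382 (0.52). Gm14405 and Gm2004 had neighbours from anywhere in the genome: Fam135a (0.07) and Carmil3 (0.10) for Gm14405, Npc1 (0.09) and Gm14405 (0.14) for Gm2004 probe set 17395373, and Zfp229 and Vmn1r53 (0.06 each) for Gm2004 probe set 17395368. With 6 arrays and 2 levels, any gene with a difference of like size comes out as near.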

How the data were processed

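RNA was measured on 6 arrays, 3 of quadruple knockout and 3 of wildtype hippocampus. The deposited values are log2 signals that the authors obtained with Affymetrix Expression Console by RMA (versions: not given in the sources used here). For RNA the labels name an RNeasy kit with DNase treatment. Groups and replicate numbers were taken from the labels.

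The platform annotation supplied the gene symbols (23521 with 1 symbol, 1820 with several, 9131 with none). Members were matched by exact symbol, and genes along chromosome 2 by gene identifier or symbol. For 2210418O10Rik the gene identifier of the platform differs from that of RefSeq, so it was matched by symbol. Gene order, gene types and promoter windows were taken from RefSeq. Positions of probes were not used, since the platform's genome build was not given in those sources.

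The genotypes were compared with limma 3.58.1 (R 4.3.3; lmFit, eBayes, two-sided) over 34472 probe sets with Benjamini-Hochberg adjustment and a threshold of 0.05, without a filter, after a test on simulated data. SE is the ordinary standard error of the difference of the means. Promoter windows were aligned with Biopython 1.88. The members, gene lists and rules were chosen with earlier results of these data known. Named genes were all probe sets of members, the 3 largest differences among other genes of the run with their own probe set, the 2 profiles most like each member, and the 2 smallest p of each list without a call. Gm14327, Gm14406, Zfp972, the genes beside the run and the paired symbols were named in addition. Alternatives to this fit added the replicate number as a block, array weights, or a variance trend with intensity (robust), or used an ordinary test (standing for the Anova of the methods), renewed quantile normalization, median centring, a filter at the background level, group medians, other background percentiles, another extent of the run and leaving out each array.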

Additional observations from a re-analysis of the deposited data

How the results depend on the processing

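All 21 member probe sets kept every knockout array above every wildtype array under renewed quantile normalization and median centring. In the deposited values 7.94% of all probe sets had such a separation. None of 72 recomputed differences of the 8 probe sets with 1 symbol changed sign. For a left-out array and for group medians both outcomes were fixed in advance by the separation. Since the genes were picked by this contrast, nothing is read from these counts. The ordinary test without shared variances called 9 member probe sets, against 18, and 24 over the whole array, against 48, with 22 called by both. Over the whole array 64 were called with an intensity trend and robust variances, 59 with median centring, 59 with the background filter, 50 with renewed quantile normalization and 50 with array weights. Leaving out 1 array at a time gave 13 to 16 member calls and 35 to 41 calls in all. The Gm2004 probe set 17395373 was called in 0 of these 6 fits, Gm14405 and Zfp971 in 1 each and Gm14295 in 3. The median difference of the probe sets with 1 symbol was 2.18 log2 units with group medians and 1.88 to 2.17 with an array left out, against 2.01. Among other genes of the run, where 0 were called, 1 (Gm14322) was called with the replicate block, with renewed quantile normalization, with median centring and with the background filter, and 2 (Gm14322 and Gm14403) with an intensity trend and robust variances. Leaving out an array gave 0 to 1 (Gm14322 without wildtype replicate 3), and adding the further probe sets of genes that share one with a member, a choice made after seeing the data, gave 9. The causes were not tested.

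Same-numbered arrays did not deviate together (correlations of 0.00, -0.12 and -0.03), and not every array correlated best with its own number. These correlations show no pairing by number but cannot exclude it. The deviations were taken from means of few arrays, and over all probe sets, many of them below background. The replicate block gave 39 calls in all and 16 among the members, losing Gm14405 and Gm2004. The bounds depend on the background level: at its 90th percentile (5.58) they were 1.84 log2 units for 2210418O10Rik, 0.86 for Zfp971, 0.65 for Gm2004 and 0.40 for Gm14405, and at its 99th (6.96) only that of 2210418O10Rik remained, at 0.46. No zinc finger gene elsewhere and no corepressor was called under any setting run for those lists.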
